A study of Homo sapiens with 4 samples.

Results

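The zinc-finger protein GATA1 binds GATA motifs in DNA, and megakaryocytes, erythroid cells, mast cells and basophils depend on it. It works with partners such as FOG1 (ZFPM1), TAL1 and RUNX1, raises genes of these lineages and lowers genes of earlier progenitors such as GATA2 and KIT. Meg-01 cells, an established human line, resemble precursors of megakaryocytes. Here GATA1 5-13, a Meg-01 clone that stably carries a GATA1 shRNA from a lentivirus, was compared with GATA1 Neg, a pool of Meg-01 cells infected with a lentivirus that carries a negative control shRNA. The comparison asks which genes differ in level when GATA1 is lowered.

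The members were the 2 arrays whose labels pair GATA1 5-13 with GATA1 Neg, of 4 arrays in the series. On array 1 the RNA of GATA1 5-13 carried the red Alexa dye and that of GATA1 Neg the green one, and on array 2 the dyes were swapped. The other 2 arrays hold a second knockdown clone, GATA1 4-14, against the same GATA1 Neg pool. Its values are set beside those of GATA1 5-13 for named genes and for some medians of gene lists and chromosome stretches. Differences between the clones were not tested, because the clones share that control. The labels' extraction text names clones of CMK, another megakaryoblastic line, while every other label names Meg-01.

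Because GATA1 5-13 is 1 clone, its 2 arrays are repeat measurements of 1 replicate. No test was therefore possible, every count below is a description, and SDs between the arrays measure the spread of repeat measurements of that clone. The labels do not say whether separate RNA extracts were used. GATA1 Neg is a pool, so its own spread was not measured, and a difference between 1 clone and a pool holds whatever set that clone apart before the knockdown; the knockdown and the choice of clone cannot be told apart. In bulk RNA, fewer cells of a type and less RNA per cell cannot be told apart either. All values are log2 ratios of GATA1 5-13 over GATA1 Neg unless a level or percentage is named, computed from spot brightness after background correction with an offset, which shrinks the ratios of dim probes towards 0.

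Of 41000 probes on the array, 25495 were measured, that is, well above background in at least 1 of the 2 RNAs on both arrays. They stand for 18587 gene or transcript names, of which 12472 are current RefSeq symbols. On the arrays, 61.8% to 66.4% of the spots of a channel were well above background, and 0 were saturated. The arrays of opposite dye orientation had a Pearson's r of 0.847 across measured probes, and probes are not independent replicates. The SD of the probes' mean log2 ratio was 0.357, and the SD of the part that changed sign with the dyes was 0.103. While 535 probes had a mean past 2-fold, 0 had a dye-dependent part of that size.

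GATA1, the targeted gene, has 1 probe, A_24_P374244, which spans 48535797 to 48536559 on chromosome X (hg18) and read -0.21 and -0.34. Both arrays lay below 0, and the mean leaves 82.7% of the level in GATA1 Neg. On the GATA1 4-14 arrays the ratios were -0.43 and -0.58. BCL2L1, which encodes the anti-apoptotic protein Bcl-xL, had 0.08 and 0.00 on its measured probe, both close to 0. That probe was dim, with a brightness of 229 and 222 in the clone and 216 and 221 in the pool. The offset shrinks such ratios, so a moderate change could be missed. Its other probe was not above background in either RNA.

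The cells carried most, but not all, markers of the megakaryocyte lineage. The 4 on the array that were not above background were among GP1BB, PF4, PPBP, VWF and SELP. Of 13 megakaryocyte markers on the array, 9 were well above background, among them ITGA2B, ITGB3 and GP9, and 13 of 13 erythroid markers and 7 of 7 mast cell and basophil markers were as well. Of the defining markers of other cells, 6 of 11 for granulocytes and monocytes, 4 of 9 for B and T cells and 4 of 10 for fibroblasts and epithelia were above background. The summed brightness of the mast cell and basophil markers was 57365 and 54792 in GATA1 5-13 and 106979 and 92867 in GATA1 Neg, lower in the clone on both arrays. The erythroid sum was 435902 and 453078 in the clone and 259883 and 339499 in the pool. The granulocyte and monocyte sum was 1956 and 1475 in the clone and 1888 and 1531 in the pool, and the B and T cell sum was 2352 and 2355 against 2283 and 2317. The fibroblast and epithelial sum was 24473 and 27214 against 28307 and 27534, and the megakaryocyte sum 49502 and 50190 against 58983 and 55258. Their part in the results below was not tested.

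A probe was called where it was at least 2-fold lower or higher on each array, and still was after the median of the 101 nearest genes had been taken off, which removes shifts shared by a stretch of chromosome. By this rule 252 of the measured probes were lower (0.988%) and 182 were higher (0.714%), in 215 and 158 genes or transcripts. Without the removal of the local median they were 273 and 196. At 4-fold on each array, 39 probes were lower and 31 higher. Of 113 called genes with several measured probes, 47 had all of them called and 4 had probes of opposite sign. Values of single genes below are those of the called probe with the largest change unless the gene is described in a list, where they are means over its measured probes.

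**Figure D1:**
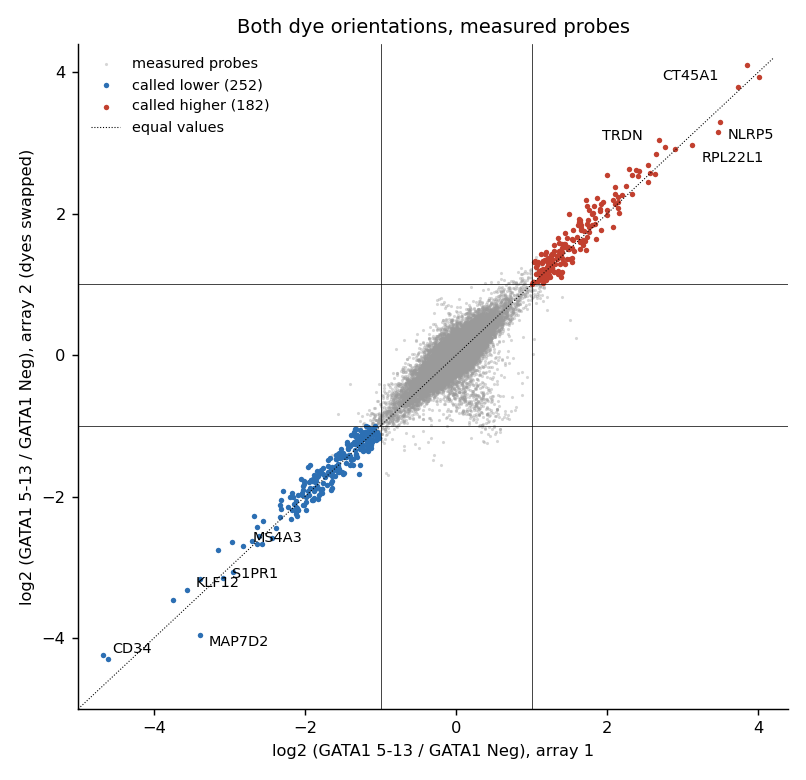
Log2 ratio of GATA1 5-13 over GATA1 Neg on array 1 (horizontal) and on array 2 with swapped dyes (vertical) for the 25495 measured probes, with thin lines at 2-fold. The 252 probes called lower and the 182 called higher lie along the line of equal values, and the grey cloud below that line, at the lower right of 0, was higher on array 1 and lower on array 2 and was not called.

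The largest fall among named genes measured in both RNAs was that of CD34, a surface sialomucin of hematopoietic stem and progenitor cells. Its probe A_32_P220798 (chromosome 1 from 206126517 to 206126576 of hg18) read -4.67 and -4.24, a mean of -4.45 ± 0.30 (SD, n = 2 arrays), so that the clone kept 4.56% of the level in the pool. Its other probe read -2.17 and -2.20, with the clone not well above background on either array, which is at least 3.83-fold lower. The brightness of the first probe was 146 and 168 in the clone and 3712 and 3176 in the pool. In GATA1 4-14 the same probe read -2.96 and -2.45.

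Receptors and a matrix protein were among the 12 largest falls. S1PR1, a receptor for sphingosine 1-phosphate that guides cell exit into the blood, read -3.09 and -3.16. KDR, the VEGF receptor of endothelial cells and their precursors, read -2.64 and -2.67 on one probe and -2.10 and -2.19 on the other. LTBP1, which holds latent TGF-beta in the matrix, read -2.97 and -2.65. All of these lay at least 4-fold below the pool on both arrays, and in GATA1 4-14 the first KDR probe read -1.39 and -1.32, S1PR1 -0.93 and -1.08 and LTBP1 -0.76 and -0.47.

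MS4A3, a four-span membrane protein of basophil and granulocyte precursors, read -2.82 and -2.70. Its brightness was 2918 and 2866 in the clone and 20538 and 18565 in the pool. NLRC3, an NLR family member that dampens innate signalling, read -2.70 and -2.63 on its called probe while its other measured probe had a mean of -0.03, and HSH2D, an adaptor of hematopoietic cells, -2.43 and -2.59. These genes were also low in GATA1 4-14, where MS4A3 read -2.03 and -1.91, NLRC3 -1.85 and -1.75 and HSH2D -1.51 and -1.66.

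MAP7D2, a microtubule-associated protein, read -3.39 and -3.96 on 1 of its 3 measured probes, the only one called, and the mildest of the others had a mean of -0.60. MGC33556 read -2.18 and -2.32. BASP1, a membrane protein that binds calmodulin, read -2.57 and -2.67 in GATA1 5-13 and -0.11 and 0.00 in GATA1 4-14. NR5A2, a nuclear receptor, read -2.64 and -2.43 against -0.31 and -0.02 in GATA1 4-14. MAOB, a mitochondrial amine oxidase, read -2.32 and -2.17 against 0.15 and 0.19. For BASP1, NR5A2 and MAOB no GATA1 4-14 array was past 1.5-fold, and the difference between the clones was not tested.

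Falls in which the clone was not above background on either array have only a bound. KLF12, a transcriptional repressor of the Krüppel-like family, read -3.57 and -3.32 and was at least 9.08-fold lower, with 0.01 and -0.08 in GATA1 4-14. EFNA5, a membrane-bound ephrin ligand, was at least 4.73-fold lower, and NPR3, a clearance receptor for natriuretic peptides, at least 4.63-fold. PHLDB2 was at least 4.60-fold lower, KDR on its dimmer probe at least 4.33-fold, and DNAAF11, an assembly factor of ciliary dynein, at least 4.28-fold. Further large falls, named after their values were seen, had a clone level above background on 1 array: another NPR3 probe read -4.61 and -4.30, SPON1, a matrix protein of the spondin family, -3.75 and -3.47, and GPC6, a glypican, -3.15 and -2.76. In GATA1 4-14 these probes read -2.36 and -2.16 for NPR3, 1.07 and 0.95 for SPON1 and 0.74 and 0.75 for GPC6, and the other measured GPC6 probe had a mean of -0.86 in GATA1 5-13.

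The largest rise among named genes measured in both RNAs was that of CT45A1, a cancer-testis antigen encoded on the X chromosome, with 3.73 and 3.79. Its brightness was 38534 and 50320 in the clone and 2908 in the pool on array 1 and 3640 on array 2, a level 13.5-fold higher. Transcripts without a gene symbol, named after their values were seen, rose further, AL359055 at 3.85 and 4.10 and A_32_P187143 at 4.00 and 3.94. CT45A5 read 3.49 and 3.30, and SAGE1, another cancer-testis antigen, 2.25 and 2.39. The CT45 genes are near-identical copies, and their probes may share targets. In GATA1 4-14, CT45A1 read -0.98 and -0.63, CT45A5 2.41 and 2.27, and SAGE1 3.09 and 3.21.

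RPL22L1, the paralog of the ribosomal protein RPL22, read 3.12 and 2.97, an 8.28-fold higher level. Its brightness was 108510 and 161986 in the clone and 12444 and 20608 in the pool. RPL22 itself, which lies on the short arm of chromosome 1, read -0.95 and -0.89 over the mean of its 4 measured probes, which leaves 52.9% of the pool's level. So the paralogs moved in opposite directions on both arrays. In GATA1 4-14 RPL22L1 read 0.04 and 0.31 and RPL22 0.00 and 0.08.

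The remaining rises among the 12 largest belong to genes best known from other tissues. NLRP5, an NLR protein of the oocyte, read 3.47 and 3.15, TRDN, the triadin of muscle calcium release, 2.68 and 3.04, and SGCZ, the zeta sarcoglycan of muscle, 2.57 and 2.58. GABRA5, a GABA receptor subunit, read 2.54 and 2.69, BCHE, butyrylcholinesterase, 2.63 and 2.56, and SHTN1, a regulator of axon outgrowth, 2.34 and 2.28. CLCA1, a secreted protein of mucous cells, read 2.29 and 2.63, and LRATD1 2.42 and 2.60. All were above background in the pool as well, with GABRA5 at 915 and 877 and NLRP5 at 769 and 1008 there.

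For rises from a pool level not above background only a bound can be given. CDH10, a neural cadherin, was at least 3.54-fold higher, ACADL, an acyl-CoA dehydrogenase of mitochondria, at least 3.28-fold, and L3MBTL4 at least 3.04-fold. MACC1, a regulator of the MET receptor gene, was at least 2.87-fold higher, and RASAL2, a RAS GTPase activator, at least 2.74-fold, with its other measured probe at a mean of 0.62. Among transcripts with no gene symbol the bound reached at least 6.72-fold, for THC2512199.

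MYCN, which the study also followed, was not called, and its probes read 0.30 and 0.03, and 0.27 and 0.30. Both probes were dim. The first had a brightness of 212.6 and 188.1 in the clone and 172.6 and 184.5 in the pool. The second had 138.2 and 130.3 in the clone, and the pool, at 114.9 and 106.0, was not above background on either array. The offset shrinks such ratios, so a moderate change of MYCN could be missed. Neither NCAM1 probe was well above background on both arrays in either RNA, so NCAM1 was not measured by the rule used here. AY358815, a transcript without a gene symbol, has a probe that lies between the NCAM1 probes on chromosome 11. It was called higher at 1.94 and 2.17, at least 4.15-fold, and read 2.28 and 2.38 in GATA1 4-14. Whether it belongs to NCAM1 was not tested. In GATA1 4-14 the second MYCN probe read 1.98 and 2.18.

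**Figure D2:**
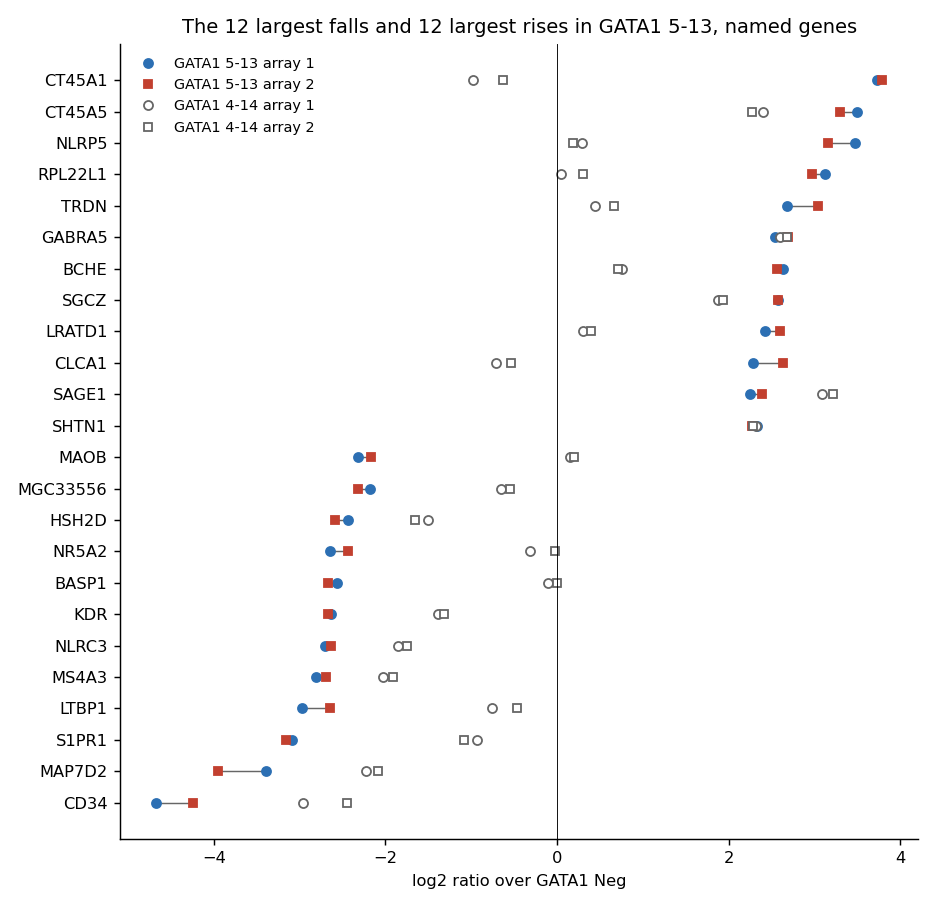
Log2 ratios over GATA1 Neg (horizontal axis) of the 12 largest falls and the 12 largest rises in GATA1 5-13 among named genes measured in both RNAs, by array. Filled marks show the arrays of GATA1 5-13, which lie close together for each gene, and open marks those of GATA1 4-14, which lie on the other side of 0 for CT45A1, CLCA1 and MAOB.

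Groups of genes were described by the median over their measured members and by the number of genes, averaged over probes, past 1.5-fold on both arrays. Of all measured genes 623 were lower (3.35%) and 440 higher (2.37%), and the median was -0.01. After the local median was taken off, 487 (2.62%) and 398 (2.14%) remained. A list of genes was not tested against other genes.

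**Figure D3:**
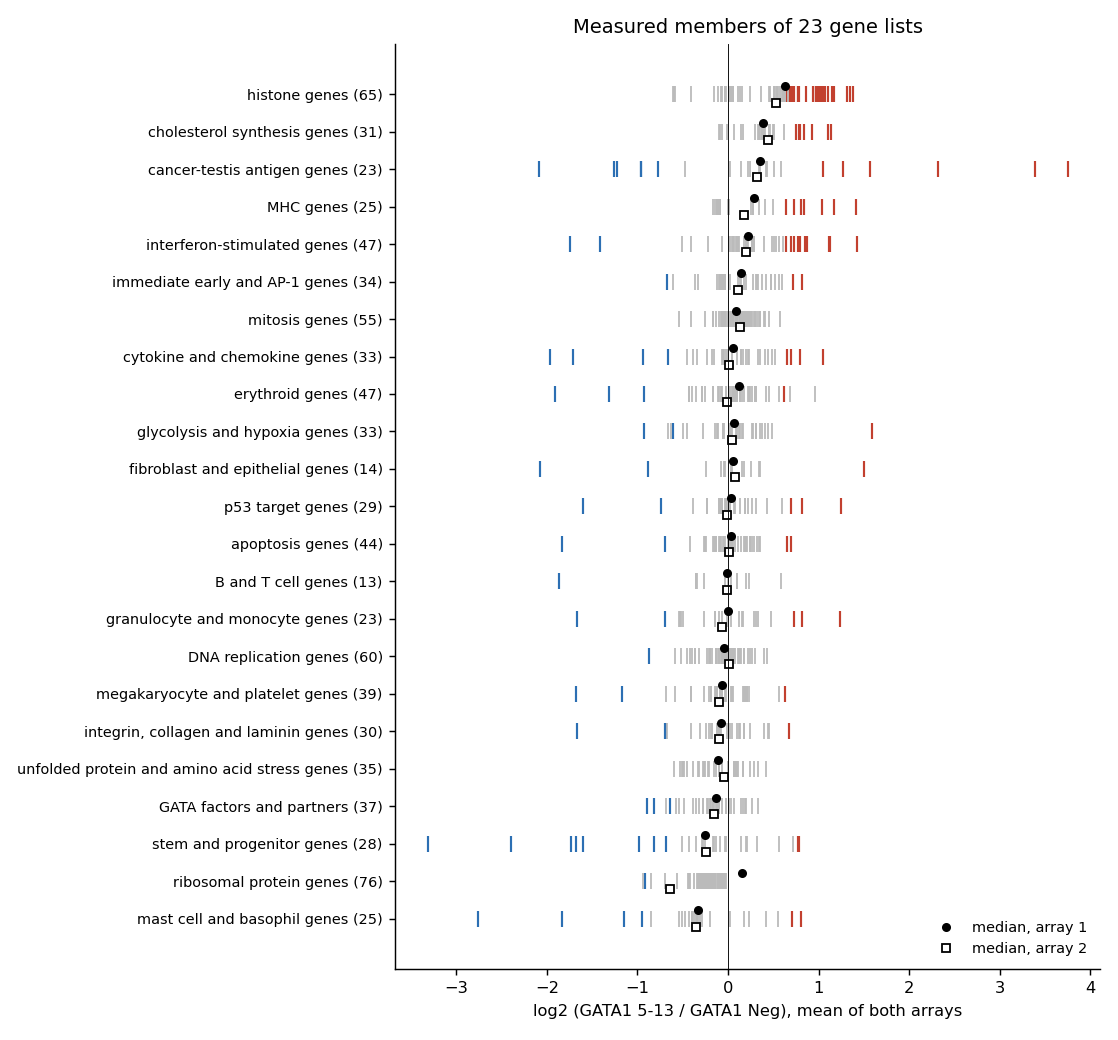
Mean log2 ratio over both GATA1 5-13 arrays (horizontal axis) of each measured gene in 23 lists, with the number of genes in brackets, blue or red where the gene was past 1.5-fold on both arrays, and each array's median. Histone genes have the highest median, and the ribosomal protein genes have medians of opposite sign, 0.15 on array 1 and -0.65 on array 2.

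The core histones H2A, H2B, H3 and H4 form the nucleosome, H1 binds the linker DNA, and most of their genes lie in clusters on chromosomes 6 and 1 and are transcribed in S phase. Of 65 measured histone genes, 27 were higher and 0 lower, and their median was 0.61, with 0.63 on array 1 and 0.53 on array 2. The families of the clusters differed. All 3 H1 genes were higher, with a median of 1.31, and so were all 16 H2B genes, between 0.67 and 1.35 with a median of 1.03. Of 14 H2A genes 7 were higher, with a median of 0.64 and a lowest value of 0.50. Of 13 H3 genes 0 were past the threshold, with a median of 0.01, and of 11 H4 genes only H4C8 was, with values from -0.61 to 0.78. In GATA1 4-14 the H1 medians on its arrays were -0.04 and 0.02, and those of H2B 0.34 and 0.19.

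Among single histone genes, H1-2 read 1.29 and 1.47, H1-4 1.27 and 1.35 and H2BC12 1.33 and 1.36. H2BC4 read 1.17 and 1.16, H2AC6 1.00 and 0.99 and H2BC21 0.72 and 0.63. The genes of a histone family are near-identical, so a probe may read several of them and the members are not separate measurements. H2BC26, H2AC8 and H4C8 were no longer past 1.5-fold after the local median was taken off. In the cluster of chromosome 6 the nearest genes include other histone genes, so that median holds part of their own rise. It was 0.19 at H2AC8 and at H4C8, against a median of 0.04 for genes from 20 to 30 Mb of the chromosome.

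H2B promoters are known for an octamer, the binding site of the POU factor OCT1. In the RefSeq promoters (GRCh38.p14, 250 bases before to 50 after the start), ATTTGCAT on either strand was found in 12 of 16 measured H2B genes, in 10 of 13 H2A genes with a promoter in the table, in 1 of 11 H3 genes and in 0 of 10 H4 genes. It was present in 1.80% of all 27305 promoters. Several H2A and H2B genes are divergent neighbours whose promoter windows overlap, so 1 octamer can be counted for both. The H2B genes with the octamer had log2 ratios from 0.67 to 1.35, and the 4 without it from 0.68 to 1.05. Stretches of 60 bases before the start, written from 5′ to 3′ on the gene's strand with the octamer in capitals, are shown for the 6 holders with the largest rise, since these genes rose together.
H2BC12 (chr6:27146871-27146930, minus strand): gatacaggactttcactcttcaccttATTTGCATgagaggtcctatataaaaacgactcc
H2BC4 (chr6:26124016-26124075, minus strand): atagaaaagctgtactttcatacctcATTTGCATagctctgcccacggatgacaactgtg
H2BC8 (chr6:26216703-26216762, minus strand): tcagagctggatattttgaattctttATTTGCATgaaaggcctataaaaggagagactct
H2BC6 (chr6:26183627-26183686, plus strand): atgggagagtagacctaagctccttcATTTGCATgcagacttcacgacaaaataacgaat
H2BC14 (chr6:27814948-27815007, plus strand): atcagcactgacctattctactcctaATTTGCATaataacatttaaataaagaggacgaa
H2BC10 (chr6:26272860-26272919, plus strand): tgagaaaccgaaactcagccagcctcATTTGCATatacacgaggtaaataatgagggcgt

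**Figure D4:**
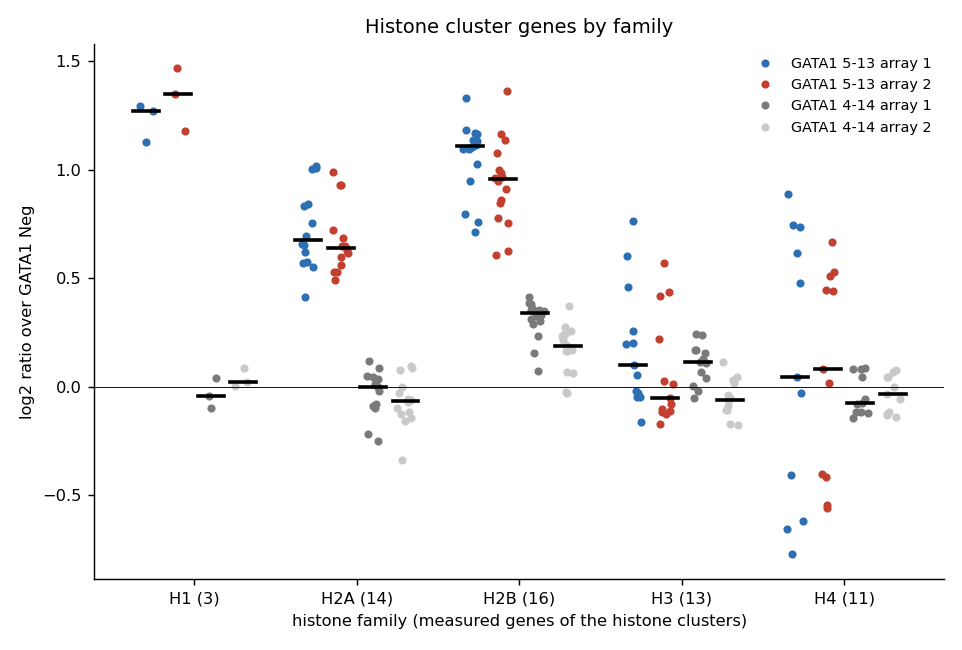
Log2 ratio over GATA1 Neg (vertical axis) of each measured histone cluster gene by family and array, with black bars at the medians. On both GATA1 5-13 arrays the H1 and H2B genes lie above 0, with medians of 0.96 or more, while the H3 and H4 genes lie on both sides of 0.

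Other lists that follow the cell cycle were described in the same way, beside shares of 3.35% lower and 2.37% higher among all measured genes. Their relation to the histone values was not tested. Of 55 mitosis genes 0 were past 1.5-fold in either direction, with medians of 0.09 and 0.13 on the arrays. Above 0 on both arrays lay 36 of them, and 11 lay below 0 on both. Among all 18587 measured genes these counts were 6991 and 7349. Of 60 DNA replication genes 1 was lower, the thymidylate synthase gene TYMS on chromosome 18, and 0 were higher, and TYMS was not past the threshold after the local median was taken off.

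Some genes of cholesterol and fatty acid synthesis were higher. The enzymes of this list turn acetyl-CoA into sterols and lipids, and SREBP factors raise them when cell sterol is low. Of 31 measured genes 7 were past 1.5-fold higher and 0 lower, with a median of 0.39 (0.39 and 0.44 on the arrays). In GATA1 4-14 the medians were -0.01 and -0.03. SCD, the stearoyl-CoA desaturase, read 1.11 and 1.16, SQLE, squalene epoxidase, 1.40 and 0.82, and DHCR7, the last enzyme of cholesterol synthesis, 0.90 and 0.95. IDI1 read 0.87 and 0.81, HMGCS1 0.79 and 0.77, and ACAT2 0.66 and 0.84. Below the threshold lay INSIG1, which holds SREBP factors in the endoplasmic reticulum, at 0.44 and 0.50, and the regulators SREBF1 and SREBF2 at mean ratios of 0.07 and -0.06. The core of the sterol regulatory element, CACCCCAC on either strand, was in 1 of the 23 promoters of this list in the table, in 0 of 4 of its risen genes and in 2.72% of all promoters, and with under 80% of the list covered no comparison is made.

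Interferon-stimulated genes encode antiviral proteins that JAK-STAT signalling raises through response elements of the form GAAANNGAA in their promoters. Of 47 measured genes 11 were past 1.5-fold higher and 2 lower, with a median of 0.23. IFIT1, which binds viral RNA ends, read 1.53 and 1.32, RSAD2 (viperin) 1.13 and 1.13, IFIT2 1.06 and 1.17 and the oligoadenylate synthetase-like OASL 0.83 and 0.92. GBP4, CXCL11, OAS1, IFIT3, CXCL10, PARP9 and TAP1 were also past the threshold, at mean ratios from 0.64 to 0.86. IFI16, a nuclear DNA sensor, fell to 29.8% of the pool with -1.86 and -1.64, and BST2 (tetherin), which holds budding virus on the cell, fell to 37.5% with -1.28 and -1.55. In GATA1 4-14 IFIT1 read -0.60 and -0.57, IFIT2 -0.61 and -0.55 and GBP4 1.45 and 1.49.

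GAAANNGAA on either strand was found in 25 of the 39 interferon-stimulated genes with a promoter in the table, and in 8.29% of all promoters. It was also found in 10 of the 16 H2B promoters. The windows of 3 risen genes are shown, with the motif in capitals on whichever strand it lay.
IFIT1 (chr10:89392495-89392554, plus strand): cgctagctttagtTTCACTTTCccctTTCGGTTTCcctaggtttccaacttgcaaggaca
RSAD2 (chr2:6865780-6865839, plus strand): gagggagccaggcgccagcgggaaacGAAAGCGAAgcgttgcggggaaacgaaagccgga
TAP1 (chr6:32853798-32853857, minus strand): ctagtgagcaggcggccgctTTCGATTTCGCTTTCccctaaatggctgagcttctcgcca

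Of 25 measured MHC genes, whose products present peptides to T cells, 7 were higher and 0 lower, with a median of 0.25. Apart from the peptide transporter gene TAP1 they were class II genes. HLA-DRB4 read 1.47 and 1.36, HLA-DRA 1.17 and 1.18, HLA-DRB5 1.03 and 1.05 and HLA-DPB1 0.97 and 0.72. HLA-DPA1 and HLA-DRB3 read means of 0.81 and 0.73. The DRB genes are near-identical and their probes may read each other's transcripts. In GATA1 4-14 HLA-DRA read 1.45 and 1.40.

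Among 28 stem and progenitor genes 8 were lower and 2 higher, with a median of -0.21. Besides CD34 and KDR, ALDH1A1, a retinal dehydrogenase used to sort stem cells, read -1.74 and -1.72, and TIE1, an endothelial receptor kinase, -1.64 and -1.71. MECOM, which encodes the EVI1 oncoprotein, differed by probe. Its probes A_23_P212688 and A_23_P317324 read -2.20 and -2.01, and -1.92 and -1.77, while another measured probe, A_24_P15154, read -0.86 and -0.83. SPINK2, ERG and CD109 were lower by 1.98-fold, 1.77-fold and 1.61-fold. ABCB1, the P-glycoprotein drug pump, read 0.71 and 0.87, and ZBTB16 0.83 and 0.73. In GATA1 4-14 ALDH1A1 read 0.22 and -0.01 and TIE1 -0.10 and -0.29.

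Among 25 mast cell and basophil genes 4 were lower and 2 higher, with a median of -0.35. Below 0 on both arrays lay 18 of them, against 7349 of all 18587 measured genes. Beside MS4A3, both measured chains of the high-affinity IgE receptor were lower, FCER1A at -1.78 and -1.89 and MS4A2 at -1.10 and -1.20, as was the monoamine transporter of granules, SLC18A2, at -1.02 and -0.89. CPA3, the mast cell carboxypeptidase, read 0.74 and 0.67, and ALOX5, which starts leukotriene synthesis, 0.82 and 0.79. KIT, the stem cell factor receptor, read -0.31 and -0.28 in GATA1 5-13 and -1.07 and -1.05 in GATA1 4-14, and the histidine decarboxylase gene HDC -0.51 and -0.29.

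The promoter windows of MS4A3, MS4A2 and FCER1A hold a GATA motif, shown in capitals on whichever strand it lay, because GATA factors are known to act on genes of this lineage.
MS4A3 (chr11:60056584-60056643, plus strand): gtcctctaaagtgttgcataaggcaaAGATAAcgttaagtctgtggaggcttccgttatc
MS4A2 (chr11:60088584-60088643, plus strand): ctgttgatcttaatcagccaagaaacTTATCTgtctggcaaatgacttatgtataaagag
FCER1A (chr1:159302188-159302247, plus strand): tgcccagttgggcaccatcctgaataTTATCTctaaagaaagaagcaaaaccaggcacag
The letters AGATAA were searched on both strands, together with the letters AGATAG, then TGATAA, then also the variant TGATAG, and 25.5% of all promoters hold at least 1 of these. Among the mast cell and basophil genes 9 of 22 promoters held one, among them the only promoter in the table of a risen gene of this list. Of the genes called lower 32 of 118 promoters held one (27.1%) and of those called higher 26 of 98 (26.5%). Among all measured genes with a promoter in the table it was 1548 of 10079 (15.4%). The difference between these shares was not tested, because under 80% of the called genes with a current symbol had a promoter in the table.

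Of 39 measured megakaryocyte and platelet genes 2 were lower (5.13%) and 1 higher (2.56%), with a median of -0.08, against 3.35% and 2.37% of all genes. GP1BA, a chain of the platelet receptor for von Willebrand factor, read -1.77 and -1.59, and PLEK (pleckstrin) -1.23 and -1.11, while VCL (vinculin), at 0.64 and 0.61, was not past the threshold after the local median was taken off. ITGA2B read -0.32 and -0.49, below the threshold. Of 47 erythroid genes 3 were lower (6.38%) and 1 higher (2.13%), with a median of 0.05. The Rh blood group genes RHCE and RHD, which are near-identical, read -1.94 and -1.87, and -1.29 and -1.34. HBG1, a fetal globin, read 1.55 and 0.37, so its arrays differed by more than the lower of the values.

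Of 37 GATA factors and partners 3 were lower and 0 higher, with a median of -0.14. They were ERG at -0.76 and -0.88, the corepressor CBFA2T3 at -0.69 and -0.60, and GFI1 at -0.87 and -0.91, which lies on the short arm of chromosome 1 and was not past the threshold after the local median was taken off. GATA2 read -0.33 and -0.38, TAL1 -0.26 and -0.07, RUNX1 0.25 and 0.15 and ZFPM1 0.09 and -0.21.

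Among 33 cytokine and chemokine genes 4 were lower and 4 higher. IL1A read -2.03 and -1.90, with the clone not above background, which is at least 3.60-fold lower, and IL1B read -1.79 and -1.62. VEGFC read -0.95 and -0.93 and CSF1 -0.63 and -0.70. CCL3 read 1.16 and 0.94, CCL4 0.91 and 0.67, IL21R 0.66 and 0.73 and CCL23 0.65 and 0.65. CSF1, CCL4 and CCL23 were not past the threshold once the local median was taken off.

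Among genes of cell death, 2 of 44 apoptosis genes were lower (4.5%) and 2 higher (4.5%), against 3.35% and 2.37% of all measured genes. The lower ones were the death ligand TNFSF10 (TRAIL) at -1.89 and -1.79 and the inhibitor BIRC3 at -0.80 and -0.60. The higher ones were the death receptor FAS at 0.64 and 0.75 and the caspase inhibitor XIAP at 0.62 and 0.68. BCL2 read a mean of 0.11 and MCL1 0.05. Of 29 p53 target genes CD82 and PLK3 were lower (6.90%) and PLK2, BTG2 and FAS higher (10.3%). CD82 read -1.55 and -1.65 and PLK2 1.35 and 1.15, and PLK3 was not past the threshold after the local median was taken off.

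Cancer-testis antigens, germ cell proteins that tumours express, were moved in both directions. Of 23 measured genes 6 were higher and 6 lower. VCX3A was 2.97-fold higher, beside CT45A1, CT45A5 and SAGE1, with VCX and VCX2 also higher, the VCX2 probes at means of 2.09 and 0.01. GAGE12F, whose probe the array assigns to GAGE7, read -1.98 and -2.18, MAGEA1 -1.39 and -1.13, MAGEC2 -1.32 and -1.13 and XAGE1 -1.07 and -0.85, with MAGEA9 and MAGEA12 also lower. Many of these are copies of each other and share sequence.

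The lists left are given with the share of their genes past the threshold, against 3.35% lower and 2.37% higher among all measured genes. Of 34 immediate early and AP-1 genes BTG2 and SGK1 were higher (5.88%) and FOSL2 was lower (2.94%), the last no longer so after the local median. Of 33 glycolysis and hypoxia genes 1 was higher (3.03%), EGLN3, a prolyl hydroxylase that hypoxia raises, at 1.45 and 1.72. EGLN1 at -0.95 and -0.91 and ENO1 at -0.61 and -0.60, both on chromosome 1, were lower (6.06%). ENO1 was not past the threshold after the local median. Of 30 integrin, collagen and laminin genes 3 were lower (10.0%) and 1 higher (3.33%). ITGAM, the alpha chain of Mac-1, read -1.64 and -1.69, ITGB7 -0.63 and -0.76, LAMA3 -0.74 and -0.62 and LAMA2 0.70 and 0.64. The laminins were not past the threshold after the local median.

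Of 23 granulocyte and monocyte genes ITGAM and LYZ were lower (8.70%) and 3 genes higher (13.0%), among them VCAN and CEBPD, the latter at 1.22 and 1.26. Of 13 B and T cell genes only GZMA was past the threshold, lower at -1.79 and -1.94 (7.69%). Of 14 fibroblast and epithelial genes 2 were lower (14.3%), KRT18 at -2.01 and -2.14 and LUM at -0.90 and -0.88, and FBN1 was 2.82-fold higher (7.14%). Of 35 genes of the unfolded protein and amino acid stress responses 0 were past it in either direction. Of 76 ribosomal protein genes RPL22 was lower (1.32%) and 0 were higher. Their medians of 0.15 and -0.65 differed in sign between the dye orientations, as did those of GATA1 4-14, 0.38 and -0.43, so no direction is given for them.

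Long stretches of chromosome were shifted as a whole, which is why local medians were taken off. The 974 measured genes of the first 120 Mb of chromosome 1 (hg18), close to its short arm, had a median of -0.30, with -0.31 on each array, and 87.8% of them lay below 0. This is a level of 81.1% of the pool, while the 861 genes of the rest of the chromosome had a median of -0.02. In the first 120 Mb 123 genes were past 1.5-fold lower (12.6%), of which 23 were left after the local median, and 6 were higher. In GATA1 4-14 the medians of the same genes were 0.00 and -0.01.

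The 47 genes of the first 10 Mb of chromosome 18 had a median of -0.46, with -0.46 and -0.42 on the arrays, and in GATA1 4-14 -0.02 and 0.01. Smaller shifts were found for 183 genes between 10 and 40 Mb of chromosome 8, with a median of -0.16, and for the 189 genes of chromosome 21, with -0.11. In GATA1 4-14 the chromosome 21 medians were -0.18 and -0.18. The 15845 other positioned genes had a median of 0.01.

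**Figure D5:**
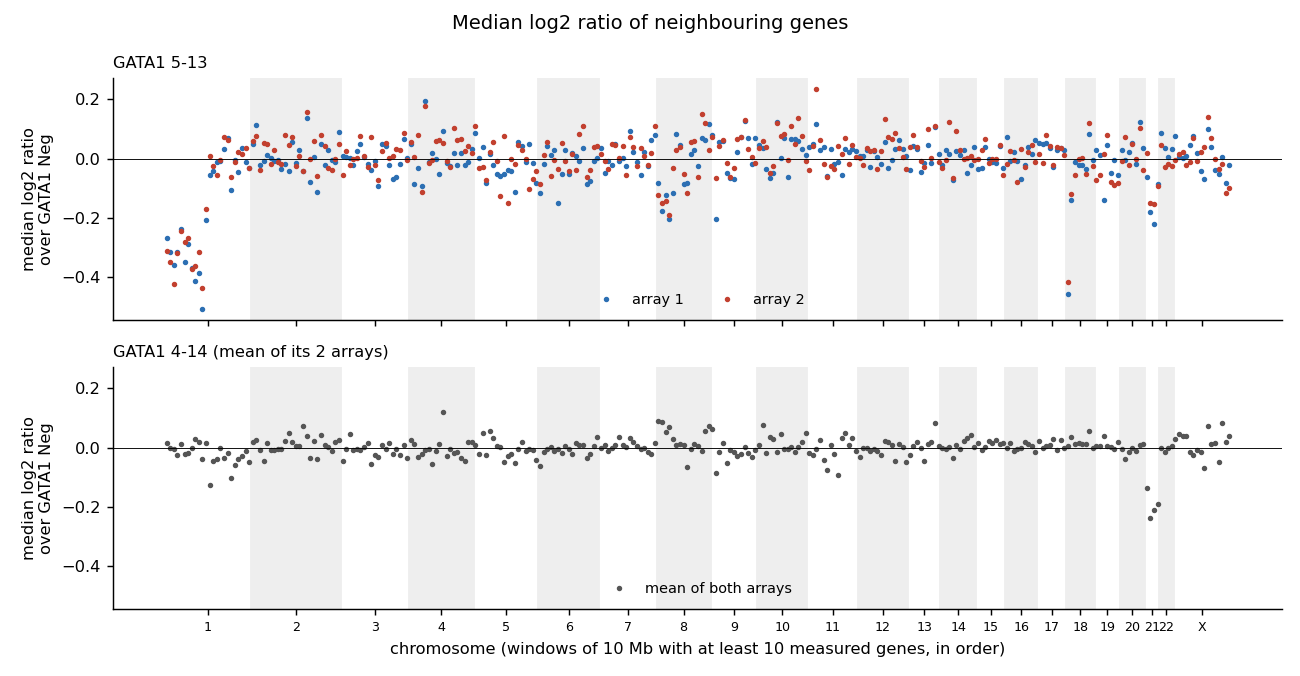
Median log2 ratio over GATA1 Neg (vertical axis) of the genes in each 10 Mb window with at least 10 measured genes, in genome order along the horizontal axis, for both arrays of GATA1 5-13 (top) and the mean of the GATA1 4-14 arrays (bottom). In GATA1 5-13 the windows of the first 120 Mb of chromosome 1 lie between -0.51 and -0.17 on the arrays, and the first window of chromosome 18 at -0.46 and -0.42.

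Away from these stretches, runs of at least 4 genes or transcripts called the same way, each within 1 Mb of the next, were found in 3 places. On chromosome 4 from 65869462 to 66256493 (hg18), 5 of 6 measured genes or transcripts were called lower, among them the ephrin receptor gene EPHA5, with a median of -1.18. On chromosome 7 from 20142674 to 20227655, 4 of 4 were called higher, among them MACC1, with a median of 1.76. Apart from EPHA5 and MACC1 the members of both runs have no gene symbol. They include AL359055, named above, and THC2512199 lies next to it at 20141907. Whether the probes of such a run read the same transcript was not tested, so they may not be separate genes. The third was the histone cluster of chromosome 6, with 7 of 60 called higher. There the local median holds part of the histone genes' own rise, and H2BC8, at 1.18 and 1.14, was not called after it was taken off.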

How the data were processed

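RNA of GATA1 5-13 and GATA1 Neg was hybridized on 2 dye-swapped 2-colour Agilent arrays; the 2 arrays of GATA1 4-14 lay on the same slide. The authors deposited Agilent Feature Extraction 9.5.3.1 output, with spot intensity and local background neither corrected nor normalized, probe positions on hg18, and that program's log10 ratios. Its deposited p-values were not used. The deposited series-wide table holds these log10 ratios with each sign set as knockdown over control (largest difference 4.97e-06, column medians 0).

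From the intensities, log2 ratios were made with limma 3.58.1 in R 4.3.3: normexp (offset 50), loess within arrays, control spots and 135 to 148 outlier spots of 43376 left out, spots of a probe averaged, and signs turned by dye. Further steps used Python 3.11.15 and pandas 2.3.3. Bounds used levels after Aquantile, against the higher of the dim signal and the lowest signal above background.

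Of 24933 probes with RefSeq accessions 23680 (95.0%) were matched to symbols through a GRCh38.p14 table, and 1128 others through a unique synonym. Gene values are means over measured probes. Motif letters apart from GATA were chosen after values were seen, and the first promoter listed for a symbol was used. The members and the 23 lists were chosen with earlier results of these data known. Named were genes the study measured separately, the 12 largest falls and rises above background, 6 bounds each way, and up to 4 members of each list and direction, with further members named where a count needed it; some genes under this rule are not reported here. Promoter-binding arrays of the study are not analysed here. The calling rule was tested on simulated data. The alternatives tried are in the closing section.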

Additional observations from a re-analysis of the deposited data

Results flagged for a closer look

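For 8 named genes both arrays of GATA1 5-13 lay past 1.5-fold on one side of GATA1 Neg and both arrays of GATA1 4-14 past it on the other side; the difference between the clones was not tested, and they share the GATA1 Neg pool. CT45A1, a cancer-testis antigen, averaged 3.76 on the log2 scale in GATA1 5-13 and -0.81 in GATA1 4-14. In the same order GZMA, a granzyme of cytotoxic cells, had -1.86 and 0.98. LUM, a matrix proteoglycan, had -0.89 and 1.87. MAGEA9, another cancer-testis antigen, had -0.96 and 1.56. PLEK, the pleckstrin of platelets, had -1.17 and 0.90. CCL4, a chemokine, averaged 0.79 in GATA1 5-13 and read -0.95 and -1.05 on the arrays of GATA1 4-14. SPON1, a matrix protein, averaged -3.61 and 1.01, and GPC6, a glypican, -2.95 and 0.74; both were named after their values were seen.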

How the results depend on the processing

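The alternatives were run for list and region medians, for the genes named by rule and for list members past 1.5-fold. Among these, no called probe and no such list member changed sign under any alternative tried. Nor did a list or region median that was larger than the arrays' spread. Other genes in the text were not put through them, such as ZFPM1, whose arrays differed in sign. The number of probes called lower, 252, became 106 without background correction, 456 with Feature Extraction's log10 ratios, 456 with the series-wide table, 616 at 1.5-fold and 39 at 4-fold. The number called higher, 182, became 85, 360, 360, 513 and 31. With array 1 or array 2 left out, the counts were 294 to 302 lower and 210 to 222 higher. Under the other alternatives (offset 10, median centring, Aquantile, outlier spots kept, other filters on dim probes, other local medians) both stayed within 1.5 times. Adding limma's adjusted p at 0.05 over the 4 arrays left 252 and 182 without a replicate block and with the replicate block, where the number is the dye orientation; this is no test, since the calls came from the same arrays of 1 clone. Without background correction the medians were 0.41 for histone genes, 0.12 for MHC genes, -0.25 for mast cell and basophil genes, -0.22 for the first 120 Mb of chromosome 1 and -0.31 for the first 10 Mb of chromosome 18. With Feature Extraction's ratios or the series-wide table they were 0.77 for histone and 0.48 for cholesterol synthesis genes, and with median centring 0.44 for the latter. With 1 array left out the MHC median lay between 0.17 and 0.28, and the cholesterol median between 0.39 and 0.44. Taking off the local median, an alternative chosen after seeing the data, gave a histone median of 0.54. The causes were not tested, apart from the thresholds, which set their counts by construction. Dim probes limit what can be seen: 15486 probes were not well above background in either RNA on both arrays.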
